A study of Mus musculus with 18 samples.

Results

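Overexpressor myoblasts were compared with control myoblasts of C2C12, a mouse line of proliferating muscle precursors that stops dividing and fuses into myotubes when serum is lowered. The comparison used 6 of the study's 18 libraries of polyadenylated RNA, chosen by their titles, with 3 libraries (A, B and C) in each group. Both groups were transfected with pX458, a plasmid that carries Cas9 and EGFP, and EGFP-positive cells were sorted after 72 h. The control (genotype label control) received the plasmid with no guide RNA and was kept as a sorted population. The overexpressor (genotype label Dlk1-Dio3 overexpressor) received a pair of guide RNAs against the proximal regulatory region of Meg3 and was grown from 1 cell. It carries a deletion there, according to the series' design text and the genotyping protocol. All 6 cultures were proliferating cells in DMEM with 10% fetal bovine serum. A knockout clone made with the same strategy, and myotubes of each line on day 3 in 2% horse serum, make up the other 12 libraries. Each genotype was 1 line, so the genotype and the clone cannot be told apart, and a sorted population differs from a clone in how many founder cells it holds. The replicates are not said to come from more than 1 clone, so p-values measure the spread between these libraries. The question behind the comparison is what differs in a proliferating muscle cell that makes an excess of these RNAs.

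The Dlk1-Dio3 cluster is an imprinted region: in most tissues its protein-coding genes Dlk1, Rtl1 and Dio3 are read from the paternal chromosome and its noncoding RNAs from the maternal one. Meg3 is the first of these noncoding RNAs and is followed in the same direction by Rian, which hosts small nucleolar RNAs, and Mirg, which hosts microRNAs. The Meg3 promoter holds a cAMP response element, a site bound by CREB-family factors. In skeletal muscle the cluster is active in stem cells and in regeneration, and its RNAs and microRNAs have been tied to proliferation, to mitochondrial activity and to the choice of differentiating.

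The noncoding RNAs of the cluster were present in every overexpressor library and at or near 0 counts in every control library. Meg3 (chromosome 12, 109541001 to 109571726, plus strand) had 0, 0 and 0 counts in control libraries A, B and C and 5363, 6924 and 6199 counts in overexpressor libraries A, B and C, which is 133 ± 22.9 CPM (the count scaled for library size, here with TMM factors; SD, n = 3). Rian (chromosome 12, 109603940 to 109661716, plus strand) had 0, 1 and 0 counts against 10088, 11467 and 9503, and Mirg (chromosome 12, 109729764 to 109749460, plus strand) had 0, 0 and 0 counts against 512, 511 and 474. No control library overlapped any overexpressor library for these 3 RNAs. Where each library of a group held at most 3 counts, the group was taken to be at the floor, and a fold against it is a lower bound set against 3 counts per library. Measured this way, Meg3 was at least 2212-fold, Rian at least 3699-fold and Mirg at least 178-fold higher in the overexpressor (adjusted p = 1.86e-08, 2.48e-12 and 5.89e-10, edgeR quasi-likelihood test with Benjamini-Hochberg adjustment over all genes tested, as throughout). The noncoding RNAs thus went with the label of the line, and Meg3 and Mirg were not detectable in control myoblasts at this depth.

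A long intergenic noncoding RNA upstream of Meg3 on the opposite strand, Gm34081 (chromosome 12, 109493529 to 109516740 on the minus strand in the GENCODE annotation), followed the same pattern, with 0 counts in each control library and 286, 343 and 308 counts in overexpressor libraries A, B and C. RefSeq places a start of Gm34081 further towards Meg3, so that 346 bases separate its promoter window from that of Meg3. Of 116 annotated genes from Dlk1 to Dio3, 37 had a count in the overexpressor and 4 in control. No count fell on Dlk1 or Dio3 in any of the 6. The retrotransposon-derived protein-coding gene Rtl1, antisense to the noncoding RNAs, had 0 counts in each control library and 3, 5 and 2 counts in the overexpressor, which is near the floor (adjusted p = 0.00459). Myoblasts of the knockout clone had 6, 14 and 6 counts of Rtl1, so a low count of it was not particular to the overexpressor. Of 67 microRNA genes in the interval, 24 had a count in the overexpressor and 0 in control, and the highest value was 10 counts, for Mir3072 in overexpressor library B. Polyadenylated RNA does not hold mature microRNAs, so these are counts of longer transcripts that run through the microRNA genes. The genes on either side of the cluster were closer to control: of 19 tested, 11 were called higher and 1 lower (of all genes tested, 20.7% were called higher and 19.7% lower), with a median log2 fold change of 0.30 against 0.02 over all genes tested. Slc25a29, a mitochondrial carrier of basic amino acids, rose by 0.71 on the log2 scale, Mok, a kinase, by 0.58, and Wars, a tryptophanyl-tRNA synthetase, by 0.48 (adjusted p = 5.71e-05, 9.83e-04 and 3.37e-05). The gene called lower was Begain (-2.06), named after its value was seen.

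The promoter of the edited gene and those of the RNAs read after it are shown as the genome sequence the edit acts on and as the sequences that went from no or 1 count to at least 474 counts in each library. They are 300 bases long, from 250 before to 50 after a RefSeq start on GRCm38.p6, and are written 5′ to 3′ on the strand of the gene. Capitals mark the cAMP response element TGACGTCA in Meg3 and each CG dinucleotide in Mirg, and the window of Rian holds 0 CG dinucleotides. Meg3 is shown at chr12:109540746-109541045 (plus strand), Rian at chr12:109603695-109603994 (plus strand) and Mirg at chr12:109734731-109735030 (plus strand).
Meg3: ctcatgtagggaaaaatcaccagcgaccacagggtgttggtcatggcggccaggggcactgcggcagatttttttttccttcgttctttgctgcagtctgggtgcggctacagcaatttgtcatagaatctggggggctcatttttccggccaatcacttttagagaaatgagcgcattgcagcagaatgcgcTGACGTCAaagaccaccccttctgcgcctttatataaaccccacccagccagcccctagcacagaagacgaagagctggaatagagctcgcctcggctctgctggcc
Rian: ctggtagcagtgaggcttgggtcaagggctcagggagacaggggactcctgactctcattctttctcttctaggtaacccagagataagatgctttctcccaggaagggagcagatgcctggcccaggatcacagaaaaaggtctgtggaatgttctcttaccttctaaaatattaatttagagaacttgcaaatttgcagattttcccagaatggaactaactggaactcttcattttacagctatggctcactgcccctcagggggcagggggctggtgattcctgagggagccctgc
Mirg: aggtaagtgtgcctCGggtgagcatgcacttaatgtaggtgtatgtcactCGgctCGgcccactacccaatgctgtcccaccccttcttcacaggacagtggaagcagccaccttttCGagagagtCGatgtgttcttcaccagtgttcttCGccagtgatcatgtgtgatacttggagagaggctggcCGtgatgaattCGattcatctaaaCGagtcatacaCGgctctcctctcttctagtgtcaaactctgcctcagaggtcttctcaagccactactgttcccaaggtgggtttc
The RefSeq start of Mirg lies downstream of the GENCODE start given above. These are reference sequences, and the ends of the deletion in the clone are not given in the sources used here. The element starts at base 194 of the Meg3 window, and its 8 letters, searched on both strands (the word is its own reverse complement), were found in 588 of 32851 RefSeq mouse promoters of this length, or 1.79%. The 5-letter core TGACG is held inside the element and was found on either strand in 20.8% of them. The Meg3 window holds 13 CG dinucleotides, and 5.43% of all promoters of this length hold 0, as the Rian window does. A match is a description of letters and not of a bound site.

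The 6 libraries held 41544358 to 49265831 counts, and a count of 0 allowed at most 0.0562 to 0.0693 CPM, the value of 3 counts. Such limits and intervals cover counting error only. Of 55450 gene IDs, 17912 passed the filter on low counts and were tested. Overexpressor library B stood apart from A and C: the chi-square statistic per degree of freedom between replicates was 37.3 for A against B and 33.1 for B against C, and 8.47 for A against C, with 7.16 to 11.8 between control replicates. Library B was the lowest of the 3 for Myog (321, 226 and 344 CPM in A, B and C) and Des (2211, 1844 and 2253 CPM). Spread between replicates, as edgeR's biological coefficient of variation, was 6.51% for control and 11.5% for the overexpressor. Without library B, 3635 genes were called higher and 3285 lower, against 3705 and 3526 with it.

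Across the transcriptome, 7231 of 17912 genes differed between the lines, 3705 higher and 3526 lower in the overexpressor, so that 40.4% of all genes tested were called (20.7% higher and 19.7% lower). Of these, 2505 differed by at least 2-fold (14% of genes tested), with 1124 higher (6.28%) and 1381 lower (7.71%). By at least 4-fold, 485 were higher and 802 lower. The counts of any gene group below are to be read against these shares. For 51.1% of genes tested the highest library of one line lay below the lowest of the other. When the test was set against a 2-fold change rather than against no change, 618 genes were called higher and 894 lower.

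**Figure D1:**
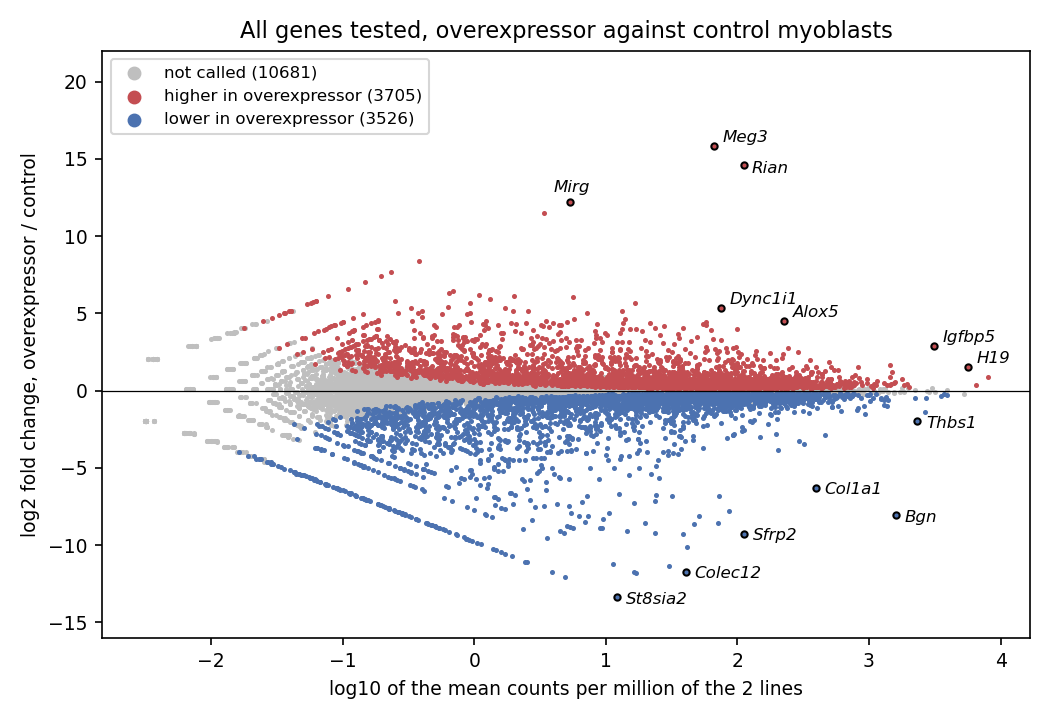
Each of the 17912 genes tested is a point, with the log10 of its mean CPM over both lines on the horizontal axis and its fitted log2 fold change, overexpressor over control myoblasts, on the vertical axis (164 genes with 0 counts in all 6 libraries have no place on the axis and are not drawn). The lines of points that slope away at low levels are genes with few or 0 counts in one line, whose fitted value depends on the prior count; Meg3, Rian and Mirg lie at the top and Bgn and Col1a1 are abundant genes far below 0.

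Among genes with the largest rise and a mean of at least 5 CPM in the higher group, most had a low but measurable level in control. Dync1i1 (chromosome 6, 5725639 to 6028039, plus strand), a cytoplasmic dynein intermediate chain, had 3.58, 3.90 and 3.27 CPM in control and 154, 134 and 152 CPM in the overexpressor. Alox5 (chromosome 6, 116410077 to 116461178, minus strand), which starts leukotriene synthesis, had 17.98, 19.8 and 19.2 CPM against 446, 415 and 440.5 CPM. L1cam (chromosome X, 73853778 to 73896105, minus strand), a neural cell adhesion molecule, had 5.07, 5.06 and 5.17 CPM against 112, 111 and 109.6 CPM. A call and no overlap between the libraries of the lines were conditions for entering this set, so the separation is not a separate result. The log2 fold changes of these 3 genes were 5.35 (SE 0.10, adjusted p = 6.74e-17), 4.52 (SE 0.11, adjusted p = 1.69e-15) and 4.44 (SE 0.15, adjusted p = 7.05e-14). Plxdc2, a transmembrane receptor, rose by 6.09, Pdgfd, a PDGF receptor ligand, by 5.17, Ano5, an anoctamin of muscle membranes, by 5.02, and Nefl, the neurofilament light chain, by 4.65. Has1, a hyaluronan synthase, went from 1.96 ± 0.277 to 41.4 ± 3.64 CPM (SD, n = 3). Serpinb9b, a serpin of the granzyme inhibitor clade, went from 5.36 ± 0.498 to 105 ± 8.60 CPM (SD, n = 3). Of the other genes in this set, Gpnmb, Dmbx1, Susd5, Lrrn1, Gria1, Plcg2, Defb41 and Myo18b rose by 4.25 to 4.61.

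The abundant genes that differed by at least 2-fold included genes of growth control, matrix and the cytoskeleton. H19 (chromosome 7, 142575529 to 142578143, minus strand), an imprinted noncoding RNA and the host of miR-675, had 2859.9, 3063 and 2983 CPM in control and 8526, 7636 and 9045 CPM in the overexpressor. Igfbp5 (chromosome 1, 72857932 to 72874884, minus strand), a binding protein of insulin-like growth factors, had 729, 751 and 727 CPM against 5562, 5281 and 5704 CPM, and rose by 2.91 (SE 0.07) on the log2 scale (adjusted p = 1.69e-15). Igfbp2, of the same family, rose by 1.65. In the other direction, Thbs1 (chromosome 2, 118111876 to 118127133, plus strand), a matricellular protein that activates latent TGF-beta, had 3949, 3484 and 3754 CPM in control and 902, 1067 and 860.2 CPM in the overexpressor. Also among the most abundant genes, Cd44 (a hyaluronan receptor, 1.35), Npnt (an integrin ligand, 1.54), Npc2 (a lysosomal cholesterol carrier, 1.56) and Sh3glb1 (a membrane-curving protein, 1.03) were higher. Aebp1 (a collagen-binding secreted protein) fell by 1.35 on the log2 scale.

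**Figure D2:**
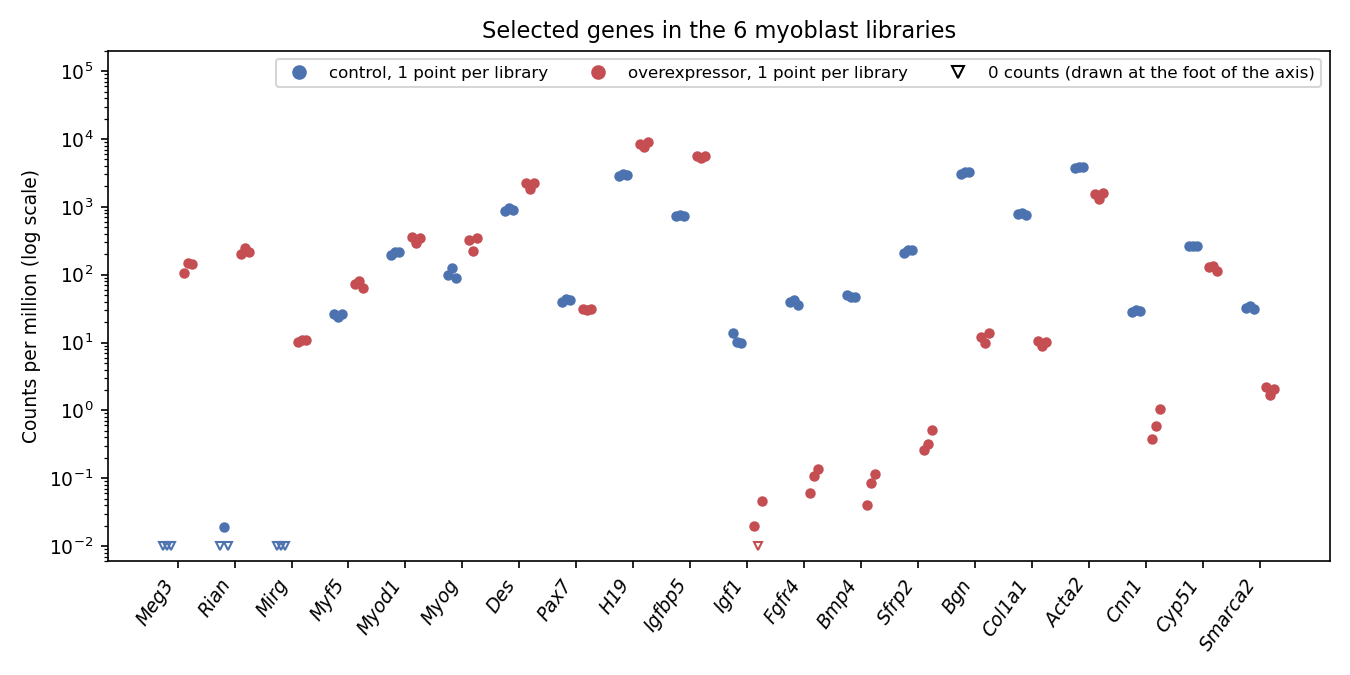
CPM on a log axis for 20 genes in each of the 6 libraries, control in blue and overexpressor in red, with 0 counts drawn as open triangles at the foot of the axis. The genes drawn are a selection from those named in the text, so the lack of overlap between the lines in all of them is not a separate result. Of all genes tested, 51.1% do not overlap. Pax7 is the gene drawn whose groups lie closest, at 40.2 to 43.8 CPM in control and 30.0 to 31.7 CPM in the overexpressor.

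The cells of both lines expressed the markers of myoblasts, and most of these markers were higher in the overexpressor. Of 10 markers tested, 8 were higher and 2 lower, with a median log2 fold change of 0.78. Their summed level was 2883 to 3103 CPM in the control libraries and 5115 to 5968 CPM in the overexpressor libraries. Myf5, a regulatory factor of committed proliferating myoblasts, had 26.5, 23.7 and 26.4 CPM in control and 73.4, 82.0 and 63.6 CPM in the overexpressor. Myod1, the factor that commits cells to the muscle lineage, had 193, 216 and 217 CPM against 364, 295 and 349.7 CPM. Des, the muscle intermediate filament desmin, had 862, 965 and 912 CPM against 2211, 1844 and 2253 CPM. In each of these 3 genes the lowest overexpressor library lay above the highest control library. The libraries of the lines did not overlap for any of the 10 markers, nor for 51.1% of all genes tested. Their log2 fold changes were 1.52 (SE 0.18), 0.69 (SE 0.10) and 1.20 (SE 0.11), with adjusted p-values of 3.36e-06, 1.29e-05 and 3.55e-08. The integrin Itga7 rose 2.50-fold, and on the log2 scale the cadherin Cdh15 rose by 1.05, the acetylcholine receptor subunit Chrna1 by 0.85 and the adhesion molecule Vcam1 by 0.72. Pax7, a factor of satellite cells and uncommitted myoblasts, had 40.2, 43.8 and 42.4 CPM in control and 31.7, 30.0 and 31.6 CPM in the overexpressor and fell by 0.44 (adjusted p = 7.22e-04). Ncam1 changed by -0.15 (adjusted p = 0.0431), a call that was lost when any 1 of the 6 libraries was left out (adjusted p of 0.0595 to 0.160).

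Regulators of the muscle lineage followed the same direction. Of 21 regulatory and progenitor factors tested, 11 were higher and 1, Pax7, was lower (median log2 fold change 0.52). The lower count was 2 without overexpressor B or with DESeq2 and 3 in the fits on 6 or 9 myoblast libraries. Myog, which starts terminal differentiation, had 99.4, 126 and 90.3 CPM in control and 321, 226 and 344 CPM in the overexpressor, so library B was the closest to control and still stood above it. Eya2, a transcriptional coactivator, was detected at 1.42, 0.949 and 1.317 CPM in the overexpressor against 0, 0.0769 and 0 CPM in control. Msc, a repressor of muscle differentiation also called MyoR, went from 0.197 ± 0.0682 to 3.98 ± 0.675 CPM (SD, n = 3), a rise of 4.34 (adjusted p = 3.67e-09). The inhibitors of basic helix-loop-helix factors Id1 and Id2 rose by 0.96 and 1.20. Mef2d, a MADS-box factor that acts with MyoD-family proteins, rose by 0.39 and, at a low level, Mef2c by 2.42 and Myf6 by 1.84. The factors Eya1 (-0.05), Eya4 (-0.04), Id3 (0.05), Mef2a (0.17), Six4 (-0.19), Tcf3 (0.10) and Tcf12 (-0.29) did not pass the test, and neither did Pax3 (0.52) and Lbx1 (0.52), which lay under 0.3 CPM in every library.

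Structural genes of the contractile apparatus were higher in part. Of 42 sarcomere and contraction genes tested, 21 were higher and 7 lower (median 0.71), and across the alternative settings 16 to 23 were higher. Neb, which sets thin filament length, had 3.76, 5.46 and 3.12 CPM in control and 17.0, 17.2 and 22.8 CPM in the overexpressor. Ttn, the titin spring, had 17.5, 15.1 and 10.3 CPM against 44.2, 61.0 and 71.6 CPM, and Ryr1, the calcium release channel, 10.4, 11.9 and 8.29 CPM against 37.3, 35.7 and 50.6 CPM. The 3 genes rose by 2.20, 2.04 and 2.01 (adjusted p = 8.53e-06, 4.42e-05 and 5.49e-09). Isoforms of embryonic and cardiac muscle were among those lower: Actc1, cardiac alpha-actin, had 63.9, 77.6 and 59.2 CPM against 28.4, 18.9 and 28.8 CPM, and Tnnt2, cardiac troponin T, 108, 119 and 94.5 CPM against 50.8, 49.5 and 53.2 CPM. Tpm1, an alpha-tropomyosin also used in nonmuscle and smooth muscle cells, fell by 0.64. In the fusion and adhesion list of 24, 10 were higher and 8 lower. Mymx, the small fusogen myomixer, went from 5.36 ± 0.832 to 10.4 ± 1.62 CPM (SD, n = 3). Adam12, a metalloprotease of fusing myoblasts, went from 53.7 ± 0.877 to 8.93 ± 0.582 CPM (SD, n = 3). Dysf, a membrane repair protein, fell by 1.67.

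Few genes of proliferation were called by at least 2-fold, and of all genes tested 14% were. Of 32 mitosis and spindle genes, 2 were higher, Prc1 (0.40) and Ube2c (0.54), and 0 lower, both shares under that of all genes. In a fit on the 9 myoblast libraries of all lines, 6 were higher and 3 lower, and the fit on the 6 libraries gave 2 lower. Without overexpressor A, 4 were higher, and without overexpressor B, 1 was lower. Of 38 replication genes, 1 was higher (Rrm2, a ribonucleotide reductase subunit, 0.39). With a median of -0.19, 12 were lower (31.6%, against 19.7% of all genes tested). That count rose to 20 when the fit used the 6 libraries alone and to 19 with those 9. Orc6, a subunit of the origin recognition complex, had 71.8, 68.4 and 72.3 CPM in control and 27.7, 32.7 and 29.9 CPM in the overexpressor. Mcm6, of the replicative helicase, fell by 0.62 and Cdc6, which loads it, by 0.49. Among 24 cyclins, CDK inhibitors, E2F factors and pocket proteins, 7 were higher and 6 lower. Cdkn1a, the inhibitor p21, had 225, 259.8 and 227 CPM against 416, 349 and 438 CPM, and Cdkn1c, the imprinted inhibitor p57, had 6.95, 7.09 and 7.22 CPM against 0.539, 0.194 and 0.647 CPM. The 2 inhibitors thus differed in opposite directions, by 0.76 and -3.94 (adjusted p = 7.33e-06 and 4.70e-04). Ccnd2 fell by 2.33 and Ccnd3, the D cyclin of differentiating muscle, rose by 0.72. Of 20 p53 and target genes, 7 were higher and 6 lower. The proapoptotic Pmaip1 (Noxa) had 3.31, 3.08 and 2.27 CPM against 48.5, 60.0 and 49.5 CPM, Bbc3 (Puma) rose by 0.92 and the death receptor Fas fell by 1.64.

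Secreted growth factors and their receptors included genes that were near the floor in the overexpressor. Of 39 tested, 12 were higher and 21 lower (median -0.52). Igf1 (chromosome 10, 87858265 to 87937042, plus strand), an autocrine growth and survival factor of muscle, had 741, 529 and 438 counts in control and 1, 0 and 2 counts in the overexpressor, at least 174-fold lower. Fgfr4 (chromosome 13, 55152640 to 55168759, plus strand), an FGF receptor of myoblasts, had 40.1, 41.9 and 36.3 CPM in control and 0.0599, 0.108 and 0.139 CPM in the overexpressor (log2 fold change -8.59, SE 0.84). Fgfr2 had 385, 422 and 356 counts in control and 0, 0 and 0 in the overexpressor, at least 119.9-fold lower. In the overexpressor each of these 3 genes had 6 counts or fewer in every library. Igf2, which shares the H19 domain, fell by 1.42 from 4.52 ± 0.510 CPM (SD, n = 3). Fgf5 rose by 4.22 from under 0.2 CPM in each control library, the neuregulin receptor Erbb3 by 1.23 and the EGF receptor ligand Areg by 0.95.

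Genes of the extracellular matrix were lower more often than higher. Of 27 collagen genes, 15 were lower and 1, Col6a3 (0.31), was higher (median -0.47); 2 were higher in the fits on 6 or 9 myoblast libraries. Col1a1 (chromosome 11, 94936224 to 94953042, plus strand), the main chain of fibrillar collagen I, had 775, 805 and 757 CPM in control and 10.4, 9.04 and 10.1 CPM in the overexpressor. Col8a2 had 45.8, 47.4 and 46.0 CPM against 1.72, 1.57 and 1.50 CPM, and Col6a2, a chain of the microfibrillar collagen VI that surrounds muscle fibres, 370.4, 395 and 369.7 CPM against 27.5, 22.7 and 30.7 CPM. The 3 chains fell by 6.31, 4.86 and 3.81 on the log2 scale (adjusted p = 2.96e-12, 7.13e-15 and 2.99e-14), while Col6a3, a partner of Col6a2 in the same trimer, had 993, 918 and 883 CPM against 1073, 1199.7 and 1188 CPM. Among 48 glycoproteins and proteoglycans, 24 were lower and 13 higher (median -0.51). Bgn (chromosome X, 73483602 to 73495933, plus strand), the small leucine-rich proteoglycan biglycan, had 3094, 3279.5 and 3239.7 CPM in control and 12.3, 9.73 and 13.6 CPM in the overexpressor, and fell by 8.08 (SE 0.19, adjusted p = 6.64e-15). Fmod, of the same family, fell by 6.84 and the elastic fibre protein Emilin1 by 4.11. Lama2, the laminin chain of the muscle basement membrane, rose from 21.6 ± 1.41 to 118 ± 7.80 CPM and Dcn, the proteoglycan decorin, from 1.88 ± 0.348 to 12.8 ± 0.650 CPM (SD, n = 3). The crosslinking enzyme Lox and the glycoprotein Tnc fell by 1.14 and 1.02.

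Matrix proteases and their inhibitors went both ways, with 13 higher and 12 lower of 30. The procollagen N-proteinase Adamts2 fell by 3.44, the metalloproteases Mmp23 and Mmp16 by 5.34 and 3.95, and Mmp14, which activates Mmp2, by 1.06. Plau, the urokinase plasminogen activator, had 78.8, 71.3 and 74.2 CPM in control and 227, 226 and 220.5 CPM in the overexpressor. Ctsl, a lysosomal cathepsin, rose by 1.28. Adamts15, a versican-cleaving protease, was at least 22.7-fold higher, at 1.37 ± 0.505 CPM (SD, n = 3) against 0, 0 and 2 counts in control. Serpinf1, an antiangiogenic serpin, fell by 1.08.

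Genes of signaling pathways that pattern muscle and connective tissue were lower more often than higher. Of 40 genes of TGF-beta, BMP and activin signaling, 24 were lower and 3 higher (median -0.52). Bmp4 (chromosome 14, 46383520 to 46390669, minus strand), a ligand that opposes muscle differentiation, had 49.7, 46.2 and 46.6 CPM in control and 0.0399, 0.0863 and 0.116 CPM in the overexpressor. The ligand Bmp7 was at least 28.3-fold and the receptor Bmpr1b at least 52.7-fold lower. The BMP antagonists Nog and Chrd rose by 1.06 and 0.93 (adjusted p = 1.25e-05 and 1.58e-07), and the third gene called higher was Mstn, myostatin, at 0, 0 and 1 counts in control and 3, 3 and 13 in the overexpressor (named after its values were seen). Of 41 Wnt genes, 23 were lower and 7 higher (median -0.50). Sfrp2 (chromosome 3, 83766321 to 83774316, plus strand), a secreted modulator of Wnt ligands, had 212, 230.5 and 234 CPM in control and 0.260, 0.324 and 0.508 CPM in the overexpressor (log2 fold change -9.29, SE 0.23, adjusted p = 2.99e-14). Ror2, the receptor of Wnt5a, was at least 78.0-fold lower, and the antagonist Dkk3 fell by 4.65. The antagonists Dkk2 and Sfrp4 rose by 2.85 and 1.78 and the agonist Rspo2 by 1.42. Of 21 Notch genes, 9 were lower and 4 higher. The target Hey1 had 10.6, 11.98 and 11.5 CPM against 41.5, 33.6 and 43.8 CPM, and Hes1, another target, rose by 0.48. The ligand Jag1 fell by 2.14, Jag2 rose by 0.41, and Dlk2, the paralogue of Dlk1, fell by 3.91. The remaining Notch gene called higher was the receptor Notch2 (0.34), named after its value was seen.

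Smooth muscle genes of the actin cytoskeleton were lower as well. Of 40 genes in the list of SRF, YAP and smooth muscle genes, 17 were lower and 8 higher (median -0.24). That list holds regulators such as Srf and Yap1 as well as targets. Acta2 (chromosome 19, 34241090 to 34255590, minus strand), smooth muscle alpha-actin, had 3791, 3906 and 3844 CPM in control and 1522, 1304 and 1574 CPM in the overexpressor. Cnn1, calponin, had 28.1, 30.3 and 29.6 CPM against 0.379, 0.582 and 1.04 CPM, Lmod1, an actin nucleator, 21.5, 23.1 and 22.3 CPM against 0.818, 0.518 and 0.693 CPM, and Myl9, a regulatory light chain, 160.0, 165 and 162 CPM against 22.8, 19.8 and 23.8 CPM. All 4 genes were lower in each overexpressor library than in any control library. They were named from among called genes, so this separation is not a separate result. The libraries of the lines did not overlap for 32 of the 40 genes, and for 51.1% of all genes tested. Fhl1, a LIM protein of muscle, rose by 1.35, the immediate early factor Jun by 0.94 and the SRF coactivator Mrtfb by 0.75.

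Marker lists of other cell types were summed in each library. The 7 smooth muscle markers, all of which are also in the list above, held 4286 to 4426 CPM in control and 1545 to 1847 CPM in the overexpressor, with 4 of 7 tested lower and 0 higher. Tenocyte markers held 183 to 188 CPM in control and 62.0 to 78.3 CPM in the overexpressor, with 4 of 4 tested lower. The other members of that list, Chad and Kera, had 0 counts in all 6 libraries. Of 7 fibro-adipogenic markers tested, 5 were lower and 1 higher, but the sum ran from 351 to 372 CPM in control to 463 to 589 CPM in the overexpressor, where Ly6a (Sca-1), the gene called higher, rose by 1.60. Of 3 adipocyte markers tested, Cebpa was lower (-1.68), Pparg higher (0.76) and Fabp4 (-0.19) did not pass the test, with a sum of 49.4 to 51.6 CPM in control and 29.9 to 32.3 CPM in the overexpressor, while Adipoq and Plin1 did not pass the filter. Among osteoblast markers, 1 of 6 tested was higher and 3 were lower, and among chondrocyte markers 1 of 5 was higher and 2 were lower. Among neuron and glia markers, 2 of 6 were higher and 1 lower, and of 2 epithelial markers 1 was higher and 1 lower. Endothelial markers had 1 of 3 higher and 0 lower, and macrophage and leukocyte markers 0 of 5 higher and 2 lower. In the remaining lists 1 gene made up most of each sum. Runx2, a factor of bone precursors, went from 99.9 ± 4.02 to 42.3 ± 2.79 CPM (SD, n = 3) in the osteoblast list, whose sum was 101 to 108 CPM in control and 48.5 to 56.8 CPM in the overexpressor, while Bglap and Ibsp, defining genes of mature osteoblasts, did not pass the filter. Sox9, the chondrocyte factor, went from 93.8 ± 8.54 to 182 ± 7.30 CPM, while Acan did not pass the filter and Col2a1 lay under 1 CPM. Tubb3, a neuronal tubulin, went from 45.6 ± 4.94 to 190.4 ± 14.2 CPM, while Rbfox3, Snap25 and Sox10 did not pass the filter. Krt14, a basal keratin, went from 51.3 ± 1.51 to 115 ± 10.3 CPM, while Epcam, Krt8 and Krt18 did not pass the filter. Endothelial markers lay at or under 0.60 CPM in sum in every library, with 3 of 8 at 0 counts in all 6, and macrophage and leukocyte markers at 12.2 to 13.9 CPM. The markers' part in the differences of matrix and smooth muscle genes was not tested. In bulk RNA, fewer cells of a type and less RNA per cell cannot be told apart.

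Imprinted genes outside the cluster differed in both directions. Of 32 tested, 13 were higher and 9 lower (median 0.19). H19 and Igf2, reciprocal genes of 1 domain, differed by 1.50 and -1.42. Peg10 (chromosome 6, 4747306 to 4760517, plus strand), a retrotransposon-derived gene expressed from the paternal allele, had 257, 246 and 294 CPM in control and 30.1, 38.4 and 29.0 CPM in the overexpressor, and fell by 3.03 (SE 0.11, adjusted p = 2.71e-13). Zim1 rose by 1.62 and Airn, the noncoding RNA of the Igf2r domain, by 1.55. Cdkn1c, described above, was the gene of this list with the largest fall. Of 25 Hox genes, which mark position along the body and limb, 15 were lower and 3 higher (median -0.70). Hoxa13 fell by 4.49, Hoxc12 by 3.86 and Hoxc8 by 1.44, from means of 2.11 to 3.26 CPM in control. The 3 called higher were Hoxb3 (at least 12.9-fold), Hoxb5 (at least 4.34-fold) and Hoxb6 (3.04 on the log2 scale), with means under 1 CPM in both groups, and were named after their values were seen. All of the Hox genes called lower were from the A and C clusters.

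Few chromatin regulators were called by at least 2-fold, and of all genes tested 14% were. In the SWI/SNF and histone deacetylase list 51.4% were called lower, against 19.7% of all genes tested. Of 34 Polycomb genes, 6 were lower and 1, Phc1 (0.26), was higher, and the lower count was 10 in the fits on 6 or 9 myoblast libraries and 3 without control C. The higher count was 2 without overexpressor A or with DESeq2 and 3 in the fit on 9 libraries. Epop, a partner of PRC2, fell by 1.46 and the chromodomain genes Cbx6 and Cbx7 by 0.76 and 0.71. In the SWI/SNF and histone deacetylase list of 35, 18 were lower and 4 higher (median -0.20), and the higher count was 2 under 10 alternative settings, among them those without control A or C or overexpressor A or C. Smarca2 (chromosome 19, 26605050 to 26778322, plus strand), the remodeler's ATPase BRM, had 32.5, 34.3 and 31.6 CPM in control and 2.20, 1.66 and 2.03 CPM in the overexpressor, while the alternative ATPase gene Smarca4 fell by 0.20 (named after its value was seen). Hdac9, a class IIa deacetylase that represses Mef2, had 0.375, 0.577 and 0.356 CPM against 8.70, 9.36 and 6.84 CPM. Hdac7, of the same class, fell by 1.12 and the remodeler subunit Smarcd1 by 0.84. Smarcd3, the muscle subunit BAF60C, rose by 0.37, and the other genes called higher were Sirt2 (0.20, adjusted p = 0.0487, lost under 10 alternative settings) and Hdac6 (0.18, named after its value was seen). Among 21 genes of DNA methylation and imprint maintenance, 4 were lower and 1 higher. The lower count was 7 and 8 in the fits on 6 and 9 libraries and 1 or 2 without control B or C or any 1 overexpressor library. The maintenance enzyme Dnmt1 fell by 0.58 and the de novo enzyme Dnmt3a rose by 0.43 (adjusted p = 4.67e-06 and 4.74e-04). Dnmt3b (-0.45, adjusted p = 0.0464) lost its call when any of 5 libraries was left out, and the other genes called lower were Mbd2 (-0.24, lost without overexpressor A or C) and Mbd1 (-0.15, named after its value was seen).

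Cholesterol synthesis was, of the lists with at least 10 members tested, the one with the largest share called in 1 direction (87.5%). Of 24 genes tested, 21 were lower and 0 higher (median -0.63), and 19 to 23 were lower under the alternative settings. Cyp51, the lanosterol demethylase, had 264, 260.4 and 263 CPM in control and 131, 136 and 114 CPM in the overexpressor, and fell by 1.05 (SE 0.083, adjusted p = 8.02e-09). The falls of most enzymes were under 2-fold. Idi1 (-0.91, adjusted p = 0.0310) lost its call when control A or overexpressor A or C was left out (adjusted p up to 0.131).

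The lists of energy metabolism did not share a direction. Of 74 nuclear-encoded respiratory chain subunits, 4 were higher and 11 lower, both shares under those of all genes, and 0 subunits reached 2-fold (median -0.01). Ndufb7, of complex I, fell by 0.86, and Uqcrc1 and Cyc1, of complex III, by 0.55 and 0.52. The subunits called higher were Cox4i1 (0.31), Ndufa3 (0.28), Sdhb (0.23) and Ndufc2 (0.19, named after its value was seen), and this count went to 0 without overexpressor A or C and to 1 or 2 without any 1 control library. In the list of mitochondrial biogenesis, dynamics and protein synthesis, 2 of 44 were higher and 13 lower. These shares were 4.55% and 29.5%, against 20.7% and 19.7% of all genes tested. Ucp2, an uncoupling protein family member, had 144, 156 and 143 CPM in control and 46.2, 34.2 and 48.8 CPM in the overexpressor, and the chaperone Hspa9 fell by 0.58. The genes called higher were the receptors Esrra (0.34, lost without overexpressor C) and, under 1 CPM, Esrrb (2.64, named after its value was seen). Of 32 glycolysis genes, 14 were higher (43.8%) and 9 lower (28.1%), with a median of 0.13. The lactate exporter Slc16a3 had 31.2, 33.5 and 34.0 CPM against 3.59, 2.46 and 3.40 CPM, and Slc16a1, the transporter of the same family, 113, 112 and 123 CPM against 206, 217 and 199 CPM. These 2 transporters differed in opposite directions, by -3.38 and 0.84. Pfkp, a phosphofructokinase, and Pdk1, a pyruvate dehydrogenase kinase, rose by 0.87 and 0.79. Of 34 fatty acid genes, 7 were higher, among them the uptake protein Cd36 (3.26) and the carrier Fabp3 (1.69), and 10 were lower, among them the enzymes Decr1 (-1.25) and Acaa2 (-1.01). Without control B, 4 of the 34 were higher.

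Stress and immune genes were lower more often than higher. Of 36 genes of the integrated stress response and amino acid supply, 9 were higher and 14 lower. Atf3, a stress-induced repressor, had 0.356, 0.596 and 0.446 CPM in control and 4.29, 5.93 and 4.60 CPM in the overexpressor. The transsulfuration enzymes Cbs, at least 28.4-fold lower, and Cth, which fell by 2.05, make cysteine from homocysteine. Stc2, a secreted stanniocalcin, fell by 2.02. Of 25 ER chaperone and unfolded protein response genes, 12 were lower and 2 higher, the kinase Eif2ak3 (0.35) and the degradation adaptor Sel1l (0.29). The chaperones Calr and Hyou1 fell by 1.01 and 0.69. Of 44 interferon and antigen presentation genes, 23 were lower and 7 higher (median -0.40). The chemokine Ccl5 was at least 15.7-fold lower, and Tap1, the peptide transporter, and Ifit1 fell by 3.34 and 3.82, all from under 4 CPM in control. The interferon-induced Xaf1 and the GTPase Igtp rose by 1.22 and 1.00. Among 35 cytokines and chemokines, 8 were higher and 14 lower. Gdf15, a stress cytokine, had 6.42, 4.98 and 7.19 CPM against 69.2, 62.7 and 67.1 CPM, and Cxcl12, a chemokine of muscle progenitors, had 203, 203 and 213 CPM against 51.9, 49.5 and 49.0 CPM.

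Cell surface glycosylation and guidance genes included related genes that differed in opposite directions. St8sia2 (chromosome 7, 73939119 to 74013690, minus strand), which adds polysialic acid to Ncam1, had 1255, 1363 and 1065 counts in control and 0, 0 and 0 counts in the overexpressor. St8sia4, the other polysialyltransferase, had 0.0375, 0.0577 and 0.245 CPM in control and 1.64, 2.85 and 2.20 CPM in the overexpressor. The 2 enzymes thus differed in opposite directions (adjusted p = 1.25e-04 and 8.72e-05), although St8sia4 stayed far under the level St8sia2 had in control. St3gal1 and St6gal1, which add sialic acid to other chains, rose by 1.98 and 1.05. Over the whole list, 7 of 24 were higher and 8 lower (5 lower without overexpressor C). Of 52 axon guidance and Eph genes, 16 were higher and 23 lower. Sema3c had 5.28, 4.81 and 5.35 CPM against 57.0, 77.2 and 61.2 CPM and Sema6a 15.3, 18.7 and 14.6 CPM against 105, 96.5 and 104 CPM, while Sema3f had 24.7, 22.9 and 25.1 CPM against 0.978, 0.906 and 1.57 CPM. These 3 semaphorins are repulsive or attractive cues, and 2 of them were higher and 1 lower. The netrin receptor Unc5c fell by 9.10, the ephrin Efnb1 by 2.31, and the plexin Plxna4 rose by 2.81.

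**Figure D3:**
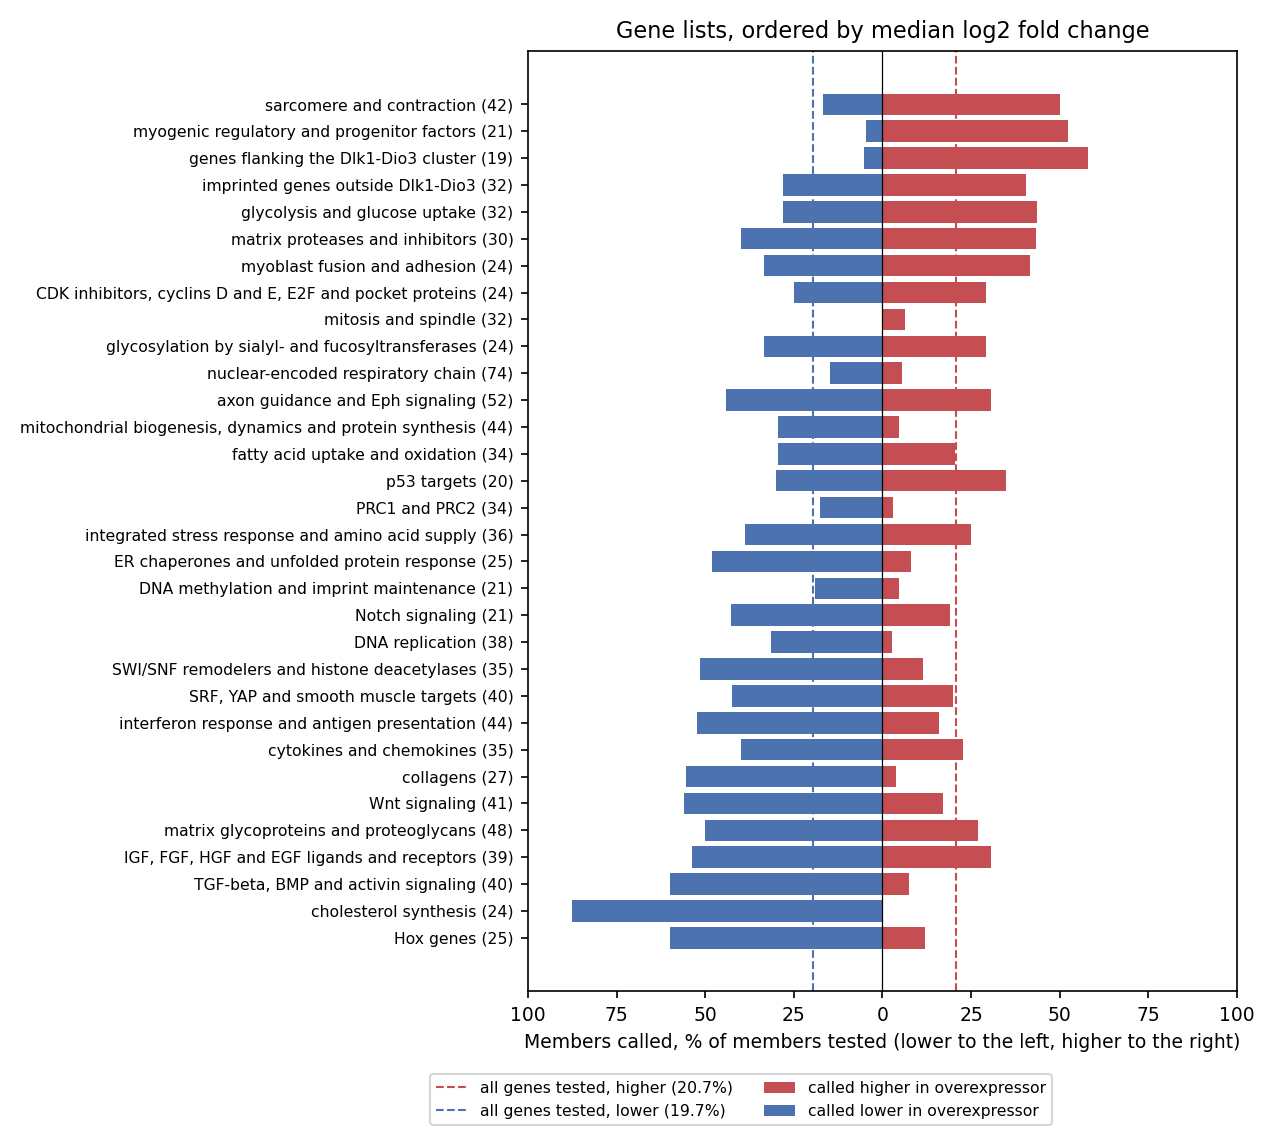
Bars give the percentage of each list's tested members (number in parentheses) that were called higher (right, red) or lower (left, blue) in overexpressor myoblasts, for the 32 lists with at least 10 members tested, ordered by median log2 fold change. Dashed lines mark the shares of all genes tested, 20.7% higher and 19.7% lower; cholesterol synthesis has no bar to the right, and the mitosis list lies inside both lines.

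Some genes went from a clear level to the floor or the reverse. Taking a mean of at least 1 CPM in one line and at most 3 counts in each library of the other, 73 genes were off in the overexpressor and 10 were on. The 73 genes included 72 protein-coding genes, and 20 of them had at least 5 CPM in control. Colec12 (chromosome 18, 9707595 to 9882644, plus strand), a scavenger receptor, had 4309, 4212 and 3609 counts in control and 0, 0 and 3 in the overexpressor, at least 1248-fold lower. Klhl13 (chromosome X, 23219271 to 23365082, minus strand), a Cullin-3 adaptor that acts in mitosis, had 3013, 3176 and 2921 counts against 0, 1 and 2, at least 941-fold lower. Bhlhb9 (chromosome X, 135797594 to 135891081, plus strand), of the armadillo-repeat family of the X chromosome, had 1900, 1617 and 1593 counts against 0, 0 and 1, at least 527-fold lower, and its annotated span overlaps other genes, so its counts are uncertain. Megf6 (an EGF-repeat protein) was at least 506-fold, Avpr1a (a vasopressin receptor) at least 152-fold, Cdh11 (a mesenchymal cadherin) at least 149.6-fold and Dchs1 (a protocadherin of planar polarity) at least 110.2-fold lower. Of the 10 genes that were on, 4 were the cluster RNAs Rian, Meg3, Mirg and Gm34081, and the others were Gna14, Gm11884, Ccdc73, Adamts15, Gm11771 and Ngfr. With a minimum of 5 CPM, 20 genes were off and 4 on, and with 0 counts required in every library of the other line, 27 were off and 3 on.

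The X chromosome carried 9 of the 73 genes that were off (12.3%), and 3.42% of the 12902 genes with at least 1 CPM in control. Promoters of genes that were off held a median of 18.5 CG dinucleotides in 300 bases (50 genes with a RefSeq promoter), against 23 for genes with at least 1 CPM in control and 21 for all tested. For genes lower by at least 2-fold the median was 15 and for those higher by at least 2-fold it was 10. Where a gene had several promoters, the highest CG count was taken. The sets also differed in level: in the higher line the median was 2.47 CPM for genes that were off. It was 2.17 and 2.53 CPM for those lower and higher by at least 2-fold. The 2 reference sets had 34.8 and 15.5 CPM. The part of level in the CG counts was not tested.

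The promoters of the most abundant genes of this kind with an entry in the RefSeq table are shown for their CG content, since CG dinucleotides are where mammalian DNA is methylated; methylation was not measured here. Capitals mark each CG dinucleotide: Klhl13 holds 16 in its window at chrX:23365014-23365313 (minus strand, 1 of 5 RefSeq promoters of the gene) and Bhlhb9 holds 11 at chrX:135885601-135885900 (plus strand), both on GRCm38.p6 and written 5′ to 3′ on the strand of the gene.
Klhl13: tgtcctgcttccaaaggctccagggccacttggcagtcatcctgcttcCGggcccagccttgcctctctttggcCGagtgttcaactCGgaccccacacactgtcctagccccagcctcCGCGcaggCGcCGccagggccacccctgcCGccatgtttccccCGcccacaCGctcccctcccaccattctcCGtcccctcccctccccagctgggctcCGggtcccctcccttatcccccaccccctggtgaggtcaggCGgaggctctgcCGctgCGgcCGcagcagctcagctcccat
Bhlhb9: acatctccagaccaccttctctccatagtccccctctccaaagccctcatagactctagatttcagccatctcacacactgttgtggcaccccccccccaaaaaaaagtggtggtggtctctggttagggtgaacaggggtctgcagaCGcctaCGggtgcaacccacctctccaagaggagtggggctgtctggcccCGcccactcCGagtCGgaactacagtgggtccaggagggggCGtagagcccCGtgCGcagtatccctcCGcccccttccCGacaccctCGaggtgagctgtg
In myotubes, which are other libraries of the same lines, 68 of the 73 genes were again called lower, where 30.9% of all genes tested were. At the floor in overexpressor myotubes too were 20 of them, and 5 reached at least 1 CPM there. Klhl13 was one of those 5, with 1585, 1659 and 3258 counts in overexpressor myotube libraries A, B and C.

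Along the chromosomes, the differences were not spread evenly. The median log2 fold change of a chromosome ran from -0.29 on chromosome 15 to 0.16 on chromosome 12. Chromosome 15 had 322 of 725 genes lower and 73 higher, and chromosome 9 had 365 of 958 lower and 87 higher (median -0.23). Chromosomes 14 and 18 had medians of -0.24 and -0.21. In runs of 40 consecutive tested genes, 1 stretch had medians at least 0.4 from 0 in 3 or more overlapping runs, a threshold chosen after the runs were seen. It covered 16.1 Mb of chromosome 8 (79711820 to 95853539), where 123 of 180 genes were lower and 8 higher, with a median of -0.73 and a middle range (quartiles) of -1.15 to -0.33. In the overexpressor libraries the median over these genes was -0.65, -0.63 and -0.61 on the log2 CPM scale (with 0.5 CPM added) in A, B and C relative to the control mean. The control libraries lay within 0.02 of 0, but they were set against their own mean and so had to lie near it. Of the genes chosen for naming by their level, their difference or their list, 7 lie in the stretch. All 7 were lower, in a stretch that was itself picked for its low medians. They are Calr, Nfix (a factor of the fetal muscle program, -1.25), Orc6, Ndufb7, Rbl2 (a pocket protein, -0.82), Herpud1 (-0.82) and Cx3cl1 (-2.10). In overexpressor against control myotubes the stretch had a median of -0.82 and 123 genes lower. In knockout against control myoblasts, a comparison that shares the control libraries, it was -0.76. The last 12 runs of chromosome 8, from 104591451 on, lay above 0, up to 0.50. DNA copy number was not measured here. Leaving out the genes of the stretch took the count of called genes from 7231 to 7100 and changed no list's lower count by more than 2 genes.

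**Figure D4:**
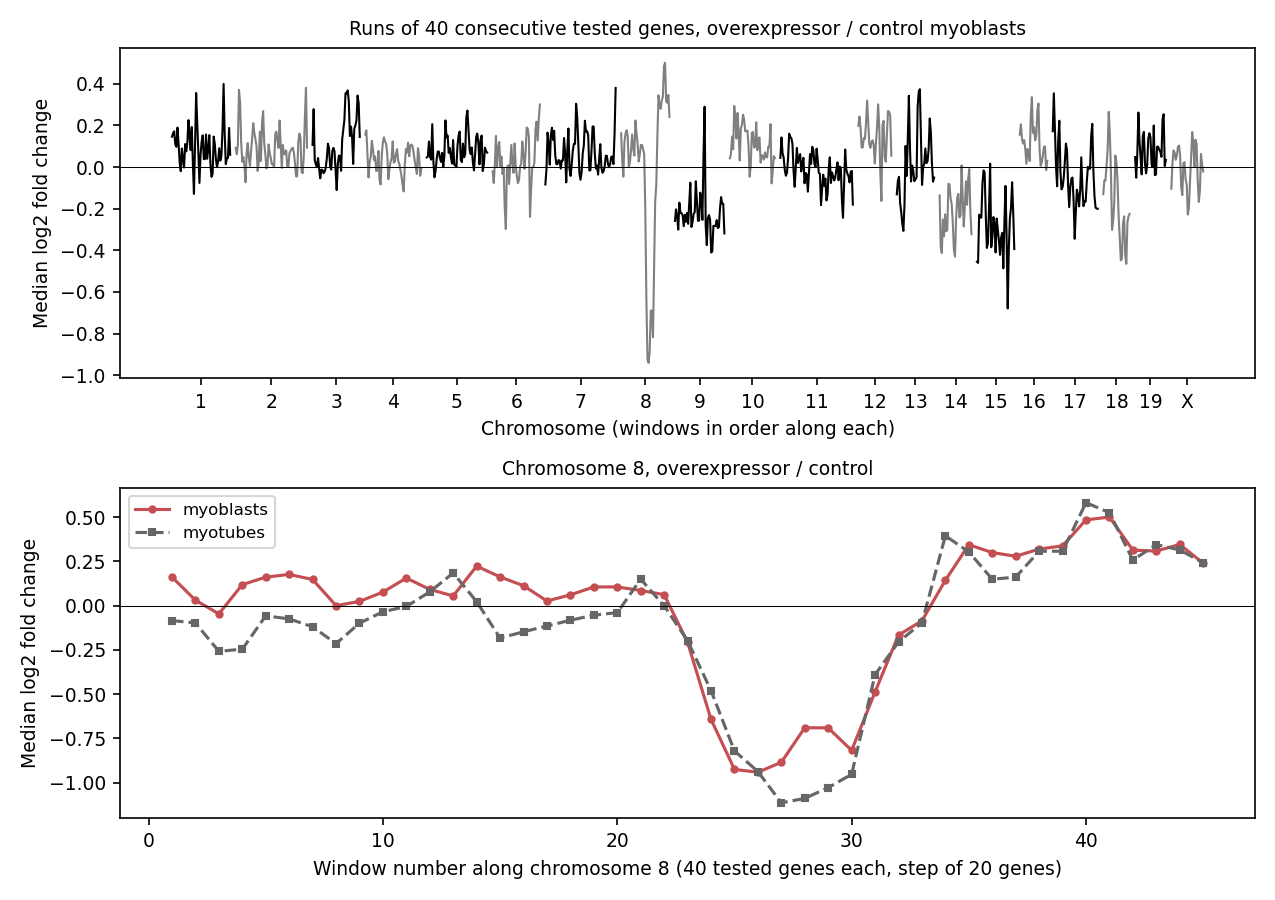
The upper panel gives the median log2 fold change, overexpressor over control myoblasts, in runs of 40 consecutive tested genes along each chromosome; the lower panel gives the runs of chromosome 8 in order, in myoblasts (red) and in myotubes (grey). A trough on chromosome 8 reaches -0.94 in myoblasts and is followed by runs up to 0.50, and all but 4 of the 111 runs of chromosomes 9, 14 and 15 lie under 0.

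The same lines were also compared as myotubes, in 6 other libraries. Overexpressor myotube library C stood apart, with a chi-square statistic per degree of freedom of 119 against A and 114 against B. The value for A against B was 23.1. Without myotube library C, 1638 genes called by at least 2-fold in myoblasts were called in the same direction in myotubes, against 1642 with it. Of the 1124 genes higher by at least 2-fold in overexpressor myoblasts, 732 (65.1%) were called higher in overexpressor myotubes and 123 lower. Of the 1381 lower by at least 2-fold, 910 (65.9%) were called lower and 149 higher. Over all genes tested, 26.2% were called higher and 30.9% lower in myotubes. The difference between the stages passed the test for 592 and 755 of these genes, against 39% of all genes tested. Among genes with a like value at both stages, chosen after their values were seen, Dync1i1 had log2 fold changes of 5.35 and 5.32, Plxdc2 6.09 and 6.63, Sfrp2 -9.29 and -10.94, Fmod -6.84 and -6.70 and Smarca2 -4.06 and -4.75 in myoblasts and myotubes. Myog (1.50 and 0.10, adjusted p = 0.559 in myotubes) and Ttn (2.04 and 0.53) were called in myoblasts and not in myotubes. Igfbp5 had 2.91 and 0.19 (adjusted p = 0.0165 in myotubes). For the lists, 6 of the 8 myoblast markers higher in myoblasts and 13 of the 15 collagens lower in myoblasts were called in the same direction in myotubes. Of the 21 cholesterol genes lower in myoblasts, 10 were called higher and 3 lower in myotubes.

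**Figure D5:**
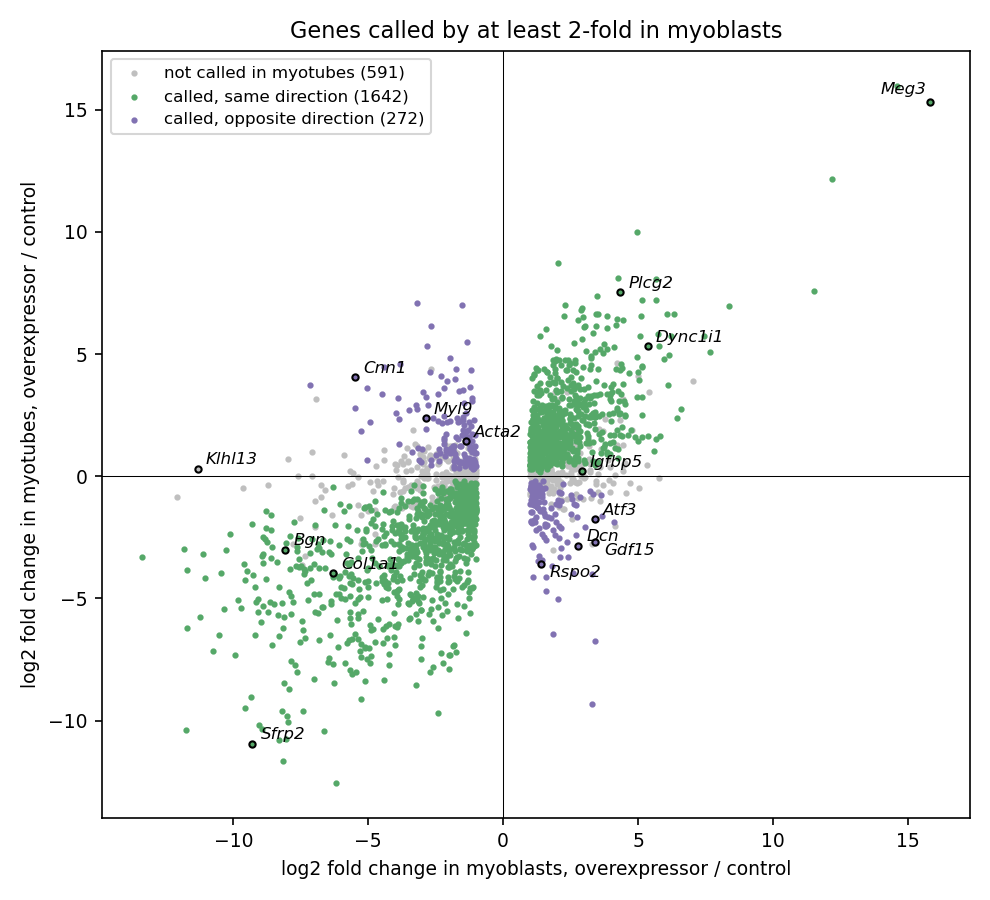
Each of the 2505 genes called by at least 2-fold in myoblasts is a point, with its log2 fold change (overexpressor over control) in myoblasts on the horizontal axis and in myotubes on the vertical axis. Green points (1642) were called in the same direction in myotubes, purple points (272) in the opposite direction and grey points (591) were not called; Cnn1, Myl9 and Acta2 lie at upper left and Gdf15, Dcn and Atf3 at lower right.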

How the data were processed

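Polyadenylated RNA of 18 libraries (3 lines, as myoblasts and myotubes, 3 libraries each) was sequenced. The authors deposited 1 table of raw counts per Ensembl gene. The submitters' processing notes name FastQC 0.11.7, STAR 2.7.9a, featureCounts (Subread 2.0.3), DESeq2 1.32.0 and the build mm10. The annotation release, the use of strand and the treatment of reads with several matches are not given in the sources used here, so overlapping or near-identical genes are uncertain. Symbols and positions came from GENCODE (GRCm38), which held 55104 and 55190 of 55450 gene IDs. Groups were taken from the titles.

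Genes were filtered with filterByExpr by group, scaled by TMM and fitted with edgeR 4.0.16 (R 4.3.3, robust quasi-likelihood test) over all 18 libraries in 6 groups, which leaves 12 residual degrees of freedom. P-values were Benjamini-Hochberg adjusted over the 17912 genes tested, and 0.05 was the threshold for a call. Standard errors are the log2 fold change divided by the square root of F. On simulated counts for this comparison (17589 genes fitted), 81% of genes changed by 2-fold and 99% of those changed by 4-fold were recovered, and 13 of 17389 unchanged genes were called. Only 200 genes were changed, none with low counts in control, and each gene had the same spread in all groups. These rates need not hold for genes with few counts or where 40.4% of genes are called. DESeq2 1.42.0, other scalings, filters and sets of libraries, and leaving out each library, were alternatives.

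Genes named are the 20 highest and 20 lowest log2 fold changes (called, at least 5 CPM in the higher group, no overlap, ordinary symbols), the 20 most abundant called by at least 2-fold, and up to 3 members in each direction of each list (called, at least 1 CPM in the higher group). The rule also selects the genes of the cluster and the myogenic factors. The comparison and the lists were chosen with earlier results of these data known. Some genes that the naming rule selects are not reported here.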

Additional observations from a re-analysis of the deposited data

Results flagged for a closer look

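In 34 of the 222 named genes called in myoblasts, the difference between the lines was called in the opposite direction in myotubes. Of all 3705 genes called higher in myoblasts, 780 (21.1%) were called lower in myotubes. Of all 3526 called lower, 484 (13.7%) were called higher there. Such reversals were thus not particular to the named genes. In the 34 genes the difference between the stages was called too. It is the log2 fold change in myotubes minus that in myoblasts (interaction term of the same edgeR fit). Calls of opposite sign at both stages nearly fix this call, so it is not a separate result. Values below are that stage difference.

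Genes that were lower in overexpressor myoblasts and higher in overexpressor myotubes included the smooth muscle genes Cnn1 (9.53), Lmod1 (5.69), Myl9 (5.26) and Acta2 (2.83) and the contractile genes Tnnt2 (2.07) and Tpm1 (1.65). Also in this direction were the replication genes Cdc6 (2.29) and Mcm6 (1.16), the maintenance methyltransferase Dnmt1 (0.99), the PRC2 partner Epop (2.35), the lactate dehydrogenase Ldhb (4.23), the mitochondrial carrier Ucp2 (2.67) and the p53 target Sesn1 (1.11). Cnn1 is the widest of them, at -5.48 in myoblasts and 4.06 in myotubes.

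Genes that were higher in overexpressor myoblasts and lower in overexpressor myotubes included the stress genes Gdf15 (-6.12), Atf3 (-5.15), Chac1 (-2.31), Wars (-2.15), Aars (-1.40), Sel1l (-1.26) and Eif2ak3 (-0.90). Secreted and matrix genes in this direction were Dcn (-5.60), Sema3c (-5.27), Rspo2 (-5.02), Nog (-3.88), Sfrp4 (-3.48), Col6a3 (-2.42) and Areg (-1.87). The others were Myf6 (-4.03), Id1 (-1.38), Vcam1 (-1.33), Npc2 (-2.03), Ctsl (-1.86), Pfkp (-1.24) and Slc16a1 (-1.20). For Gdf15 the values were 3.42 in myoblasts and -2.70 in myotubes. With 3 libraries in each group, single libraries were not screened for outlying values in these genes, and overexpressor myotube library C was included.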

How the results depend on the processing

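Of 231 named genes, 222 were called. Leaving out 1 library removed the call of 12 of them under at least 1 choice of library (Acsl4, Cox4i1, Dnmt3b, Eda2r, Esrra, Gbp2, Idi1, Mbd2, Ncam1, Ndufa3, Sdhb and Sirt2), and other scalings, filters, fits or DESeq2 removed the call of 8 of these. No named gene that was called changed direction. Among genes not called, the value with 1 library left out ran from -0.15 to 0.027 for Eya1, -0.17 to 0.071 for Eya4, -0.0049 to 0.13 for Id3 and -0.13 to 1.11 for Pax3; above 0 for Eya1 without control C (0.022) or overexpressor C, above 0 for Eya4 without control A (0.020) or overexpressor A, and below 0 for Id3 without overexpressor A and Pax3 without overexpressor C.

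The count of called genes was 6634 to 8020 under the other scalings, filters and fits, 5455 at an adjusted p under 0.01, and 6314 to 6920 when 1 library was left out. Against a 2-fold change it was 1512 (618 higher and 894 lower), which follows from the stricter test. The replicate letters did not pair the samples: the correlations of same-letter deviations were -0.16, -0.10 and -0.04, and the fit with the replicate block called 6803 genes. Genes off in the overexpressor numbered 20 with 5 CPM required and 27 with 0 counts required (on: 4 and 3), and 70 to 85 (on: 10 to 14) when 1 library was left out.

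Chromosome medians moved with the scaling: on library totals they were -0.77 for the stretch of chromosome 8 and -0.27, -0.28, -0.33 and -0.25 for chromosomes 9, 14, 15 and 18, and chromosome 18 had -0.18 with a filter of 1 CPM. When 1 library was left out they ran from -0.76 to -0.72, -0.25 to -0.22, -0.27 to -0.22, -0.31 to -0.28 and -0.21 to -0.17. The causes were not tested. Genes near 3 counts per library (0.0562 to 0.0693 CPM) are limited by depth.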
